A study of Drosophila melanogaster with 12 samples.

Results

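Transcripts that were highest or lowest in Drosophila testes holding arrested spermatocytes were sought by setting 2 meiotic arrest mutants, aly and sa, against both bam and yw testes. Levels were read on 12 Affymetrix arrays, and the mean of the aly and sa arrays (6) was compared with the mean of the bam and yw arrays (6) in 1 linear model with a mean per genotype. A gene was called in a comparison at a limma Benjamini-Hochberg adjusted p under 0.05 with a change of at least 2-fold. The combined contrast also calls genes that differ strongly from only 1 of the comparison genotypes. A peak gene was therefore required to be called higher in all 4 pairs (aly over bam, sa over bam, aly over yw and sa over yw), and a trough gene to be called lower in all 4. Among 11982 genes, higher calls numbered 1953 (16.3%) for aly over bam, 2460 (20.5%) for sa over bam, 3385 (28.3%) for aly over yw and 2861 (23.9%) for sa over yw. Lower calls in the same pairs numbered 2242 (18.7%), 2471 (20.6%), 1803 (15.0%) and 1548 (12.9%). Of the genes measured, 434 (3.62%) were peak genes and 57 (0.476%) were trough genes. The 4 pairs share arrays, so they are not independent of each other. The values by which these genes were chosen are given as a description.

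In the fly testis, germline stem cells give rise to spermatogonia that divide a few times by mitosis, and then become primary spermatocytes. Spermatocytes grow through a long meiotic prophase during which most genes needed later for the meiotic divisions and sperm formation are transcribed. The products of aly and of sa act in that programme. The aly product belongs to tMAC, a testis-specific relative of the Myb-MuvB complex, and the sa product is a testis-specific paralog of a subunit of the general transcription factor TFIID (a testis TAF). When either is missing, spermatocytes stop before the meiotic divisions and accumulate. When bam is missing, germ cells continue to divide as spermatogonia. Testes of yw males contain every stage from stem cell to sperm.

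The groups were bam1/bamΔ86, aly2/aly5P and sa1/sa2 mutant males and y,w control males, written bam, aly, sa and yw here. All flies were 1 day old, and each of the 3 biological replicates per genotype was RNA pooled from about 200 pairs of whole testes, of which about 4 µg was labelled for 1 array. The mutants carry 2 different alleles each, and whether they also carry y and w alleles was not given. A whole testis also holds somatic cells, so fewer cells of a type and less RNA per cell cannot be told apart in any value below. Deposited intensities ran from 9.35 to 25799 with array medians of 44.9 to 57.2, and differences are on the log2(intensity + 16) scale, which understates the change of dim genes. Across genes, which are not independent replicates, the lowest Pearson correlation within a genotype was 0.977 and the highest between genotypes was 0.895. The second yw array was the lowest of the yw arrays in 376 of the 434 peak genes (86.6%) and in 6576 of all genes (54.9%). Without it 401 peak genes and 64 trough genes were called.

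The labels were read against genes whose stage is known. The sa transcript measured 112, 112 and 96.2 in the sa arrays against 7616, 6878 and 7590 in aly and 1518, 1179 and 1515 in yw. It was thus far lower in its own mutant than in aly or yw, though above the 25.3, 20.8 and 22.9 of bam. The bam transcript measured 1174, 1094 and 948 in bam testes, against 651, 648 and 572 in aly, 287, 309 and 313 in sa and 67.2, 36.5 and 66.3 in yw. The aly transcript was dim in every genotype, between 58 and 185, and is no check of its label. The spermatogonial transcription factor ovo averaged 2045 in bam and between 13.3 and 16.8 in the other 3 genotypes. The late sperm gene don juan (dj) averaged 550 in yw, 114 in sa, 17 in aly and 16.4 in bam. In both arrest mutants ovo was therefore as dim as in yw, and dj was well below yw.

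In the combined contrast 1941 genes (16.2%) were higher and 1410 (11.8%) were lower in the arrest mutants. Most of these were not peaks or troughs. Among the 1941 higher genes, 434 (22.4%) exceeded both bam and yw in both mutants, 814 (41.9%) exceeded yw in both mutants but bam in at most 1, and 538 (27.7%) exceeded bam in both mutants but yw in at most 1. The other 155 (7.99%) exceeded neither in both mutants. Across these patterns, 650 of the 1941 genes (33.5%) exceeded both bam and yw in 1 mutant only. Among the 1410 lower genes, 57 (4.04%) lay below both in both mutants. A further 724 (51.3%) lay below yw in both mutants but below bam in at most 1, 537 (38.1%) below bam in both but below yw in at most 1, and 92 (6.52%) below neither in both. In 143 of the 1410 (10.1%), 1 mutant only lay below both bam and yw. A gene that all 6 arrest arrays placed above all 6 others was also more frequent than the reverse, with 1317 genes (11.0%) against 237 (1.98%). The balance between the directions moved with the scaling of the arrays. The share of called genes that were higher was 57.9% on the deposited scale, 50.8% with quantile normalization, 53.5% with median centring (each array set to the same median over all genes) and 28.1% with ribosomal centring (each array set to the same median over ribosomal protein genes). The last of these moved the median difference of all genes in the contrast from -0.01 to -0.47. Ribosomal centring also moved that median to -1.04 in aly over yw and -1.165 in sa over yw. Of the 41 ribosomal protein genes themselves, 31 were higher and 3 lower in aly over yw, and 34 and 3 in sa over yw. Against bam 0 were higher and 2 lower in aly, and 2 and 2 in sa. Peak and trough genes numbered 356 and 82 with quantile normalization, 297 and 80 with median centring, and 122 and 410 with ribosomal centring. Of the 434 peak genes, 347, 284 and 91 were kept under those 3 scalings, and of the 57 trough genes 53, 47 and 43.

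**Figure D1:**
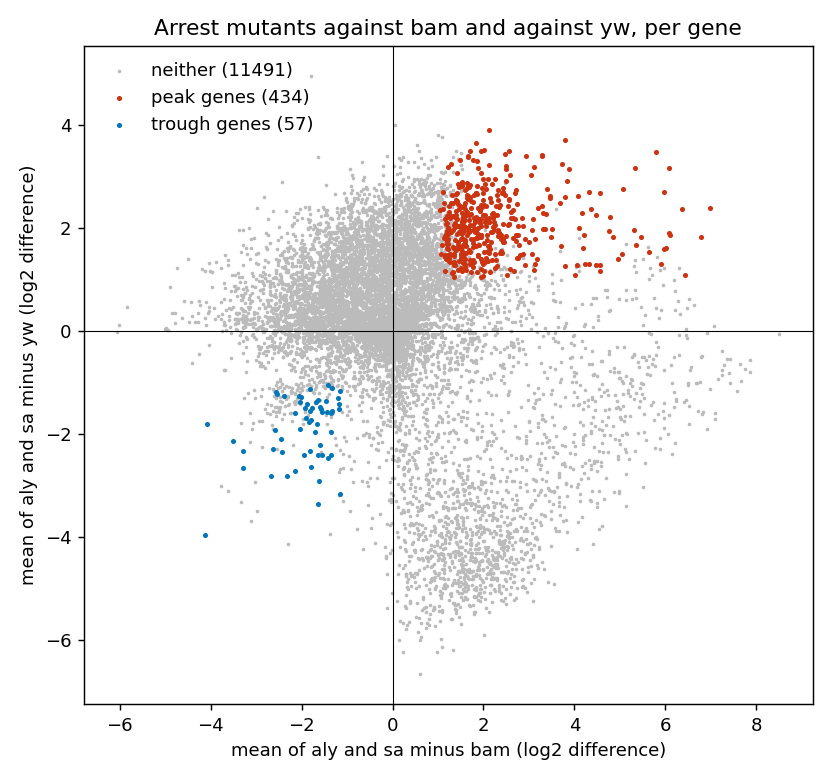
Each point is 1 of 11982 genes, with the mean of aly and sa minus bam on the horizontal axis and the mean of aly and sa minus yw on the vertical axis, both as log2 differences. The 434 peak genes (red) fill the upper right and the 57 trough genes (blue) the lower left, while the larger arms of the cloud hold genes that differ in opposite directions from bam and from yw.

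The peak genes were expressed at moderate to high intensity in the arrest mutants. The median over the 434 genes of the genotype mean was 2140 in aly and 1660 in sa, against 428 in bam and 444 in yw, and 343 of them averaged at least 1000 in the arrest arrays. The margin, which is the smallest of a gene's 4 differences, had a median of 1.36 (2.57-fold) and reached 3.13, and 41 genes had a margin of at least 4-fold. In 29 peak genes both bam and yw averaged under 100. The 6 arrest arrays lay above all 6 others in 433 of the 434 genes, against 1317 (11.0%) of all genes. The choice of the genes largely fixes this. The exception was CG2861, at 659 to 2660 in the arrest arrays and 51.3 to 882 in the others. Genes just inside the limit were Wdr92 and U2af38 (margin 1.004 each) and CG12241 (1.005), and just outside it stood Bulli (0.999), Liprin-alpha (0.998) and CG6418 (0.997).

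The genes with the largest margins included signalling genes. Galphaf, which encodes an alpha subunit of a heterotrimeric G protein, measured 748, 661 and 776 in aly, 606, 469 and 662 in sa, 43, 56.4 and 55.8 in bam and 60.9, 34.1 and 48.1 in yw. All arrest arrays stood well above all others, and bam and yw overlapped. Its difference in the contrast was 3.35 ± 0.119 (SE, 10.2-fold, limma adjusted p = 1.45e-09), and its margin of 3.13 was the largest of any gene. CCHa1, which encodes the neuropeptide CCHamide-1, measured 424, 410 and 315 in aly, 1160, 965 and 786 in sa, 31.7, 27.5 and 26.9 in bam and 26.9, 34.8 and 32.2 in yw. It was near the floor in both comparison genotypes and higher in every sa array than in any aly array (contrast 3.76 ± 0.105, limma adjusted p = 2.43e-10). Nos, which encodes nitric oxide synthase, measured 645, 449 and 414 in aly, 272, 243 and 162 in sa, 25.5, 23.9 and 23.7 in bam and 24.9, 22 and 18.8 in yw. Its order was the reverse of that of CCHa1, with aly above sa, and its margin was 2.55. Oli, a basic helix-loop-helix transcription factor of the Olig family that is known from neurons, reached 1091 to 1223 in aly and 918 to 949 in sa, against 24.9 to 31.4 in bam and 108 to 187 in yw. Because CCHa1 and Oli are known from neurons, the neuron markers were read beside them. None of the 5 (of elav, nSyb and the like) was called in any of the 4 pairs, and their summed intensity was 453 to 557 in aly, 431 to 485 in sa, 417 to 482 in bam and 322 to 395 in yw.

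Also among the largest margins were genes with a known part in protein synthesis. eIF4E6, a paralog of the cap-binding translation initiation factor eIF4E, measured 2779, 2433 and 2639 in aly, 2514, 2618 and 1973 in sa, 127, 168 and 164 in bam and 329, 187 and 304 in yw. The mutants overlapped each other and stood clear of both other genotypes, and the margin was 3.07. betaNACtes1, a testis paralog of the ribosome-associated chaperone subunit beta-NAC, measured 5418, 5292 and 4877 in aly, 2155, 2580 and 3146 in sa, 39.9, 36.4 and 39.7 in bam and 478, 301 and 428 in yw. betaNACtes2 had the same order, with 2161 to 2444 in aly, 872 to 904 in sa, 127 to 179 in yw and 18.8 to 20.9 in bam. Both lie on the X chromosome among near-identical copies, so the division of signal between these copies is uncertain. Their margins were 2.67 and 2.49.

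The other leading peak genes covered several functions. Nmnat, an enzyme of NAD synthesis, measured 2440, 2288 and 2322 in aly, 1648, 1829 and 2174 in sa, 104, 116 and 109 in bam and 330, 275 and 375 in yw. Each of its genotypes stood apart from the next, and 2 of its 3 probe sets met the peak definition. pie (pineapple eye) measured 1953 to 2503 in aly and 1900 to 2126 in sa, against 292 to 375 in bam and 128 to 204 in yw. Ravus measured 4099 to 4235 in aly and 1898 to 2572 in sa, against 329 to 428 in bam and 196 to 330 in yw. For jb the levels were 2961 to 3434 in aly, 1125 to 1520 in sa, 115 to 228 in yw and 20.1 to 22.1 in bam. The uncharacterised X-linked gene CG32507 measured 1050 to 1383 in aly and 537 to 908 in sa, against 94.2 to 116 in yw and 42 to 54.8 in bam. These 5 genes had margins of 2.47 to 2.84. The probe set that stood for oaf measured 4601 to 5144 in the arrest arrays and 321 to 775 in the others (margin 2.73), but its other 2 probe sets were lower in the arrest mutants (-1.33 and -1.75), and with the mean of its probe sets oaf was no peak gene. These 13 leading genes all met the peak definition under all 3 other scalings. Of the 33 peak genes that the naming rule picked, which include these, 32 did so with quantile normalization, 29 with median centring and 15 with ribosomal centring.

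**Figure D2:**
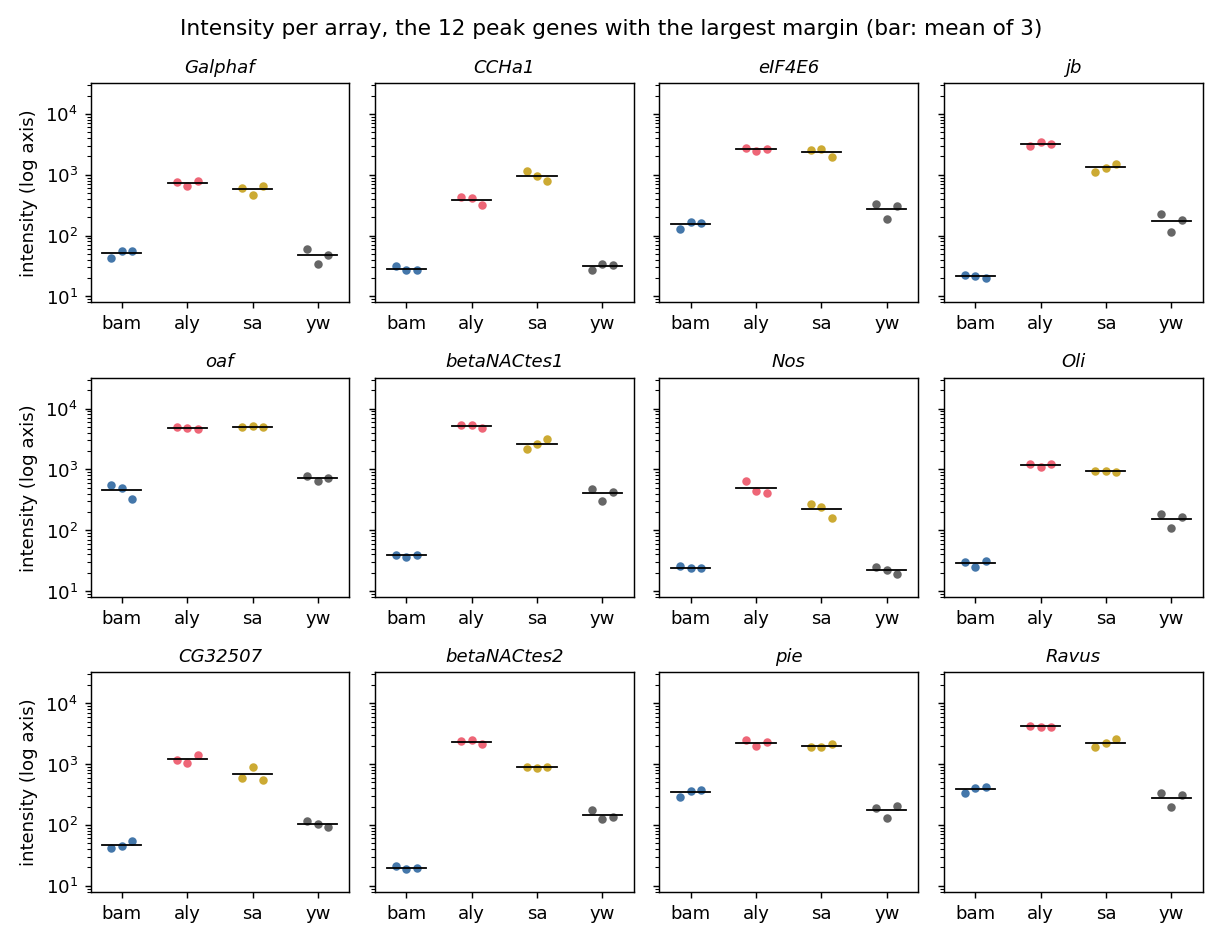
Intensity on a log axis in each of the 12 arrays for the 12 peak genes with the largest margin, with points for single arrays and a bar for the mean of 3 arrays per genotype. In every panel the 6 aly and sa arrays lie above the 6 bam and yw arrays, and in jb, betaNACtes1, Oli and betaNACtes2 the bam arrays lie clearly below the yw arrays.

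Genes of the spermatocyte transcription machinery were higher in the contrast, and some of them were peak genes. The lists described from here on were written with earlier results of these data known. Of 9 measured tMAC genes, 7 were higher in the contrast, none was lower and 3 were peak genes, with a median difference of 2.28 against -0.01 over all genes. tomb, the DNA-binding subunit tombola, measured 2879, 3025 and 2861 in aly, 979, 1253 and 1423 in sa, 283, 349 and 291 in bam and 371, 228 and 324 in yw. The aly arrays were highest, the sa arrays second, and bam and yw overlapped (contrast 2.56 ± 0.123, limma adjusted p = 1.14e-08). comr (cookie monster) averaged 969 in aly, 514 in sa, 135 in yw and 23.8 in bam, and wuc (wake-up-call), a paralog of the MuvB subunit LIN52, averaged 2526, 1688, 574 and 30.6 in the same order. The margins of tomb, comr and wuc were 1.92, 1.84 and 1.54. The zinc-finger subunit topi was no peak gene, since it averaged 8263 in aly but 575 in sa, below the 1255 of yw. Neither was vis, at 3687 in aly, 852 in sa, 506 in yw and 256 in bam. With ribosomal centring 5 of the 9 were still higher in the contrast (median 1.81), but 0 were peak genes.

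All 5 testis TAFs were higher in the contrast and 3 were peak genes, with a median difference of 2.23. Among the 5 is sa itself, which lay below yw in its own mutant, so its call rests largely on the aly arrays. The TAF4 paralog nht (no hitter) measured 4296, 4270 and 4375 in aly, 2854, 3317 and 2742 in sa, 832, 620 and 780 in yw and 140, 162 and 138 in bam. The 4 genotypes did not overlap, and its contrast was 3.36 ± 0.0824 (limma adjusted p = 1.33e-10). The TAF6 paralog mia averaged 2511 in aly, 1108 in sa, 480 in bam and 386 in yw. Taf12L, a TAF12 paralog, averaged 9246 in sa, 4013 in aly, 1917 in yw and 874 in bam, but its second probe set was at -0.18 in the contrast and not called, and without the second yw array its margin was 0.95. The TAF5 paralog can, at 1802 in aly, 924 in sa, 528 in yw and 16.6 in bam, missed the peak definition in sa over yw. The number of testis TAFs among the peak genes was 2 with median centring, where mia was lost, and 0 with ribosomal centring, where all 5 were still higher in the contrast. Of 12 general TFIID genes 3 were higher, 1 was lower and 0 were peak genes, and of 5 RNA polymerase II subunits none was a peak gene. Over all genes 16.2% were higher, 11.8% lower and 3.62% peak genes, so the counts of these 2 lists are near the background.

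Of 8 spermatocyte chromatin genes 7 were higher in the contrast, with a median difference of 3.33, and 2 were peak genes. kmg (kumgang), a zinc-finger protein that keeps somatic genes off in spermatocytes, measured 2171, 2147 and 2388 in aly, 1060, 1327 and 1508 in sa, 514, 380 and 507 in yw and 43.6, 39.2 and 48.5 in bam. The testis bromodomain gene tbrd-3 averaged 3848 in aly, 1504 in sa, 617 in yw and 73.8 in bam. The 4 genotypes stood in that order without overlap for both. tbrd-2, at 6990 in aly, averaged 630 in sa and 883 in yw, so it was no peak gene. The linker histone gene BigH1 averaged 4554 in aly, 1805 in sa, 944 in yw and 526 in bam, and missed the definition with a margin of 0.94. Of the 2 peak genes, tbrd-3 was lost with median centring and both with ribosomal centring, where 7 of the 8 genes were still higher in the contrast.

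Among the members of all lists described here, the RNA-binding factor Rbp4 had the largest margin. Rbp4, an RNA-binding protein that acts on cyclin B translation in spermatocytes, measured 13545, 12570 and 11978 in aly, 7129, 8337 and 8942 in sa, 1761, 1257 and 1667 in yw and 119, 146 and 179 in bam. All genotypes were separate, with a contrast of 4.33 ± 0.111 (20.2-fold, limma adjusted p = 1.53e-10) and a margin of 2.38. Its partner fest was not a peak gene, at 3480 in aly, 6792 in sa, 6227 in yw and 15.2 in bam. Rb97D, which binds transcripts of giant Y-chromosome genes, averaged 5254 in aly, 5409 in sa, 1939 in yw and 790 in bam. blanks, a double-stranded-RNA-binding protein of spermatocyte nuclei, averaged 15128 in aly, 13308 in sa, 6137 in bam and 3692 in yw. Rbp4 was a peak gene under all scalings, whereas blanks was lost with median centring and both blanks and Rb97D with ribosomal centring. In all, 3 of 13 genes of this list were peak genes, and 7 were higher and 4 lower in the contrast. The lower ones, orb, heph, eIF4E4 and eIF4G2, had no common pattern, since orb was high in bam alone (1079, against 17.3 to 19.7 in the others) and eIF4E4 was highest in yw (6944) and second in sa (822).

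**Figure D3:**
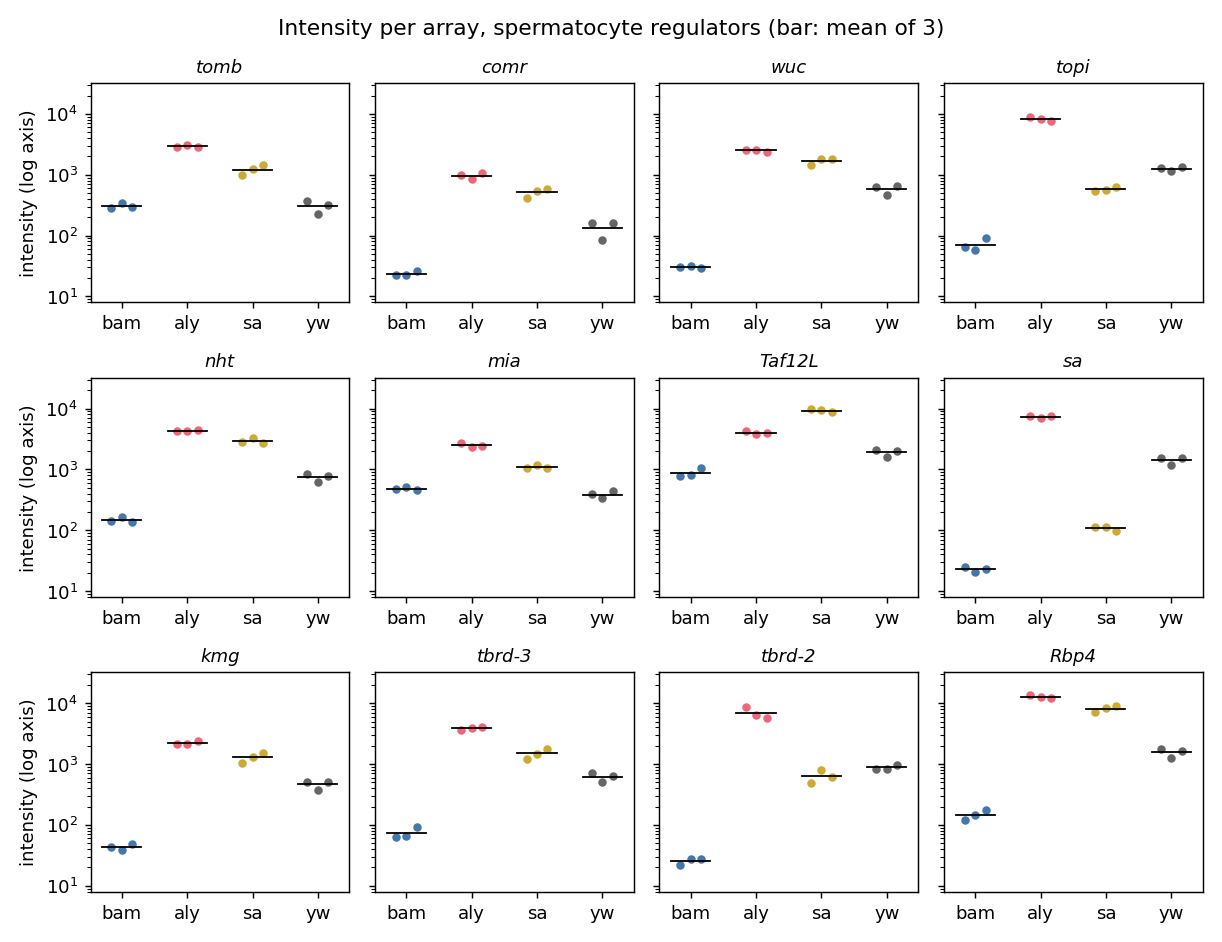
Intensity on a log axis in each array for 12 regulators of the spermatocyte programme, with points for arrays and bars for means of 3. The panels of tomb, comr, wuc, nht, mia, Taf12L, kmg, tbrd-3 and Rbp4 show both mutants above bam and yw, while in topi, sa and tbrd-2 the sa arrays fall below the yw mean.

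Genes of the later programme were read next. None of 19 spermatid differentiation genes was a peak gene, although 8 were higher and 4 lower in the contrast. The higher ones exceeded bam alone, as in ocn, at 8832 in aly and 8650 in sa against 21.2 in bam and 12803 in yw. Among 13 cup and comet genes, 15 axonemal dynein and tektin genes, 13 testis proteasome paralogs, 4 sperm leucyl aminopeptidases and 7 Y-linked genes, 0 were peak genes. The aminopeptidase S-Lap2, for example, averaged 8358 in aly, 4469 in sa, 10785 in yw and 20.3 in bam, and the testis tubulin betaTub85D averaged 5763, 4583, 15645 and 30.4. One of 20 testis paralogs of mitochondrial proteins was a peak gene, namely ATPsynbetaL, a paralog of the ATP synthase beta subunit, which averaged 4686 in aly, 2393 in sa, 909 in yw and 32.6 in bam. It was lost with median and with ribosomal centring. With 3.62% of all genes in the peak class, a count of 0 in a list of this size is near the background. Of 15 stem cell and spermatogonia genes, none was higher in the contrast and 5 were lower, ovo, vas, otu, pum and brat, all of which differed from bam and not from yw.

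Cell cycle and chromosome genes followed. Of 14 mitotic checkpoint and segregation genes 7 were higher and 2 lower in the contrast, with Bub3 at 6840 in aly, 4472 in sa, 4953 in bam and 590 in yw as an example. Only the checkpoint kinase gene Bub1 was a peak gene there, with 1375, 1144 and 1329 in aly, 1743, 1920 and 1244 in sa, 542, 707 and 610 in bam and 407, 410 and 487 in yw. Its margin was 1.03, and it was 0.94 with quantile normalization. Of 7 meiotic division regulators, Rbp4 was the only peak gene, and CycB (cyclin B) was lower in the contrast with 2940 in bam, 665 in sa, 217 in yw and 65.1 in aly. Among 20 DNA replication genes 2 were higher, 2 lower and 0 peak genes, and among 9 conjunction and cohesion genes and 10 meiotic cytokinesis genes 0 were peak genes. Of the conjunction and cohesion genes 4 were higher and 0 lower, and of the cytokinesis genes 3 were higher and 3 lower. Over all genes 16.2% were higher, 11.8% lower and 3.62% peak genes. The DNA replication counts and the counts of 0 peak genes are near that background. The shares of higher genes in the checkpoint list and in the conjunction and cohesion list lay above it, with no test. The conjunction gene mod(mdg4), which has many splice forms, was read from 1 of 22 probe sets (contrast 1.41, called higher). Its probe sets differed in direction. Another of them met the peak definition (contrast 2.2, margin 1.38). Of the rest, calls were higher at 1.32 and lower at -1.06, and most were not called. Averaging all of them put the contrast of mod(mdg4) at 0.02, which was not called. Centriole genes held 2 peak genes of 11. Sas-6, which builds the centriole cartwheel, averaged 1299 in aly, 1363 in sa, 459 in yw and 296 in bam, and B9d1, of the ciliary transition zone, averaged 9800, 5192, 1903 and 90.1 in the same order. Bub1, Sas-6 and B9d1 were not peak genes with ribosomal centring.

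Single members of other lists were peak genes. Sce, which encodes the RING-finger H2A ubiquitin ligase of Polycomb repressive complex 1, averaged 4533 in aly, 2128 in sa, 872 in bam and 310 in yw, as the only peak gene of 6 in its list. None of 8 Polycomb repressive complex 2 genes or 9 trithorax group genes was a peak gene. The initiator caspase gene Dronc measured 2185, 2065 and 2193 in aly, 1495, 1629 and 906 in sa, 397, 531 and 194 in bam and 420, 266 and 454 in yw, and was the only peak gene of 14 cell death genes. The arrest arrays did not overlap the others in Dronc, but the third sa array was well below the other two. Hsp68, an Hsp70 family chaperone, averaged 6438 in aly, 6074 in sa, 2503 in bam and 1933 in yw, the only peak gene of 6 heat shock genes, and 1 bam array reached 4128. CkIIalpha-i1, an interactor of casein kinase 2, averaged 1501 in aly, 980 in sa, 315 in bam and 256 in yw, and was the only peak gene of 4 in the Stellate and casein kinase 2 list. Of 8 tubulins, 14 autophagy and lysosome genes, 6 antimicrobial peptides and 41 ribosomal protein genes, 0 were peak genes. The ribosomal protein genes had a median difference of 0.49 in the contrast. Over yw their medians were 1.31 in aly and 1.28 in sa, and over bam -0.24 and -0.19. With 3.62% of all genes in the peak class, counts of 0 or 1 in these lists are near the background. The piRNA pathway held a gene of each class among 25. Panx, which acts in transcriptional silencing guided by piRNAs, averaged 1751 in aly, 1905 in sa, 631 in bam and 459 in yw, whereas papi, a Tudor-domain protein of piRNA maturation, averaged 329 in aly, 395 in sa, 983 in bam and 2055 in yw. With ribosomal centring Sce remained a peak gene, while Dronc, Hsp68, CkIIalpha-i1 and Panx did not.

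The arrest mutants were also compared with each other, a difference not itself used to choose the peak genes. The peak rule does set limits on all 4 genotypes, so it bears on these counts and on those of bam against yw. Over all genes, aly exceeded sa in 946 (7.9%) and lay below it in 1427 (11.9%). Within the 434 peak genes the counts were 57 higher (13.1%) and 5 lower (1.15%), and the median difference was 0.31, against 0.1 over all genes. The mean of aly was above that of sa in 316 of the 434 peak genes and in 7050 of all 11982. Genes higher in aly included jb (1.29), tomb (1.27), mia (1.17), tbrd-3 (1.36), Nos (1.11) and Sce (1.1). The 5 genes higher in sa were CCHa1, Zip48C, CG4318, Sirt7 and Taf12L. Over the same 434 genes, aly exceeded sa in 61 with quantile normalization, 154 with median centring and 67 with ribosomal centring, and lay below it in 5, 0 and 5. Over all genes aly then exceeded sa in 1331, 2395 and 1089 and lay below it in 1263, 1039 and 1362. The direction over all genes thus depended on the scaling. Between the comparison genotypes, bam exceeded yw in 46 peak genes (10.6%) and lay below it in 69 (15.9%), against 4099 (34.2%) and 2220 (18.5%) of all genes. With ribosomal centring these counts over the same 434 genes were 0 and 306, and over all genes 1205 and 6733. The largest such differences among the peak genes named above were in ATPsynbetaL (-4.24), B9d1 (-4.16) and wuc (-3.65), all far lower in bam than in yw. Of those peak genes, Sce (1.45) was the one called higher in bam.

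The trough genes were described in the same way. Over the 57 genes the median of the genotype mean was 202 in aly, 244 in sa, 1000 in bam and 954 in yw. Their median margin was -1.29 (2.44-fold), and 7 had a margin of at least 4-fold. In 54 of the 57 all arrest arrays lay below all others, against 237 (1.98%) of all genes. The choice of the genes largely fixes this, and the exceptions were Dup99B, Imp and PAPLA1. At the limit stood CG14931 (-1.004), CG6701 (-1.012) and PAPLA1 (-1.017) inside, and Indy (-0.998), Acbp2 (-0.981) and CG10650 (-0.98) outside.

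Several trough genes encode signalling and membrane proteins. Galphas, the stimulatory G protein alpha subunit that activates adenylyl cyclase, measured 175, 128 and 205 in aly, 237, 258 and 172 in sa, 1135, 1024 and 902 in bam and 1397, 1319 and 1591 in yw. Both mutants were far below both other genotypes (contrast -2.56 ± 0.125, limma adjusted p = 1.24e-08), the opposite direction to Galphaf. ana (anachronism), a secreted glycoprotein known from glia of the larval brain, measured 195, 147 and 164 in aly, 288, 204 and 169 in sa, 2032, 1726 and 2303 in bam and 1262, 1189 and 1388 in yw. Its margin of -2.48 was the largest in size among troughs whose arrays did not overlap. The tetraspanin gene Tsp42Ed averaged 328 in aly, 275 in sa, 1713 in bam and 1321 in yw. NKCC, a sodium, potassium and chloride cotransporter, averaged 96.9, 102, 358 and 425 in the same order, and the cell adhesion gene Fas1 (Fasciclin 1) averaged 141, 231, 3210 and 649.

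Other leading troughs act in RNA and chromosome biology and in metabolism. Tailor, a terminal uridylyltransferase that tags RNA ends, measured 181, 164 and 170 in aly, 388, 362 and 489 in sa, 1698, 1810 and 1871 in bam and 2038, 1731 and 2124 in yw. It was lower in aly than in sa as well (-1.18, limma adjusted p = 7.11e-06). Cap-G, a condensin subunit, measured 171, 173 and 157 in aly, 123, 106 and 119 in sa, 972, 931 and 916 in bam and 742, 660 and 832 in yw. The spread within each genotype was small beside the gap between mutants and others (contrast -2.45 ± 0.066, limma adjusted p = 1.89e-10). Got2, a mitochondrial aspartate aminotransferase, averaged 1592 in aly, 1774 in sa, 6346 in bam and 5461 in yw. GstO3, an omega-class glutathione S-transferase, averaged 391, 330, 1650 and 1124, and Kpc2, of a ubiquitin ligase complex, averaged 191, 174, 605 and 1030. Of uncharacterised genes, CG5399 measured 335 to 627 in the arrest arrays and 2068 to 4739 in the others, CG18268 measured 59.4 to 119 and 375 to 595, and CG12279 measured 225 to 452 and 933 to 2595. The X-linked gene Sclp measured 52.3 to 87.7 in the arrest arrays and 233 to 714 in the others. All 15 leading trough genes (Dup99B, described next, included) and the list members papi, Act87E and Lsp2, 18 in all, remained trough genes under the 3 other scalings.

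**Figure D4:**
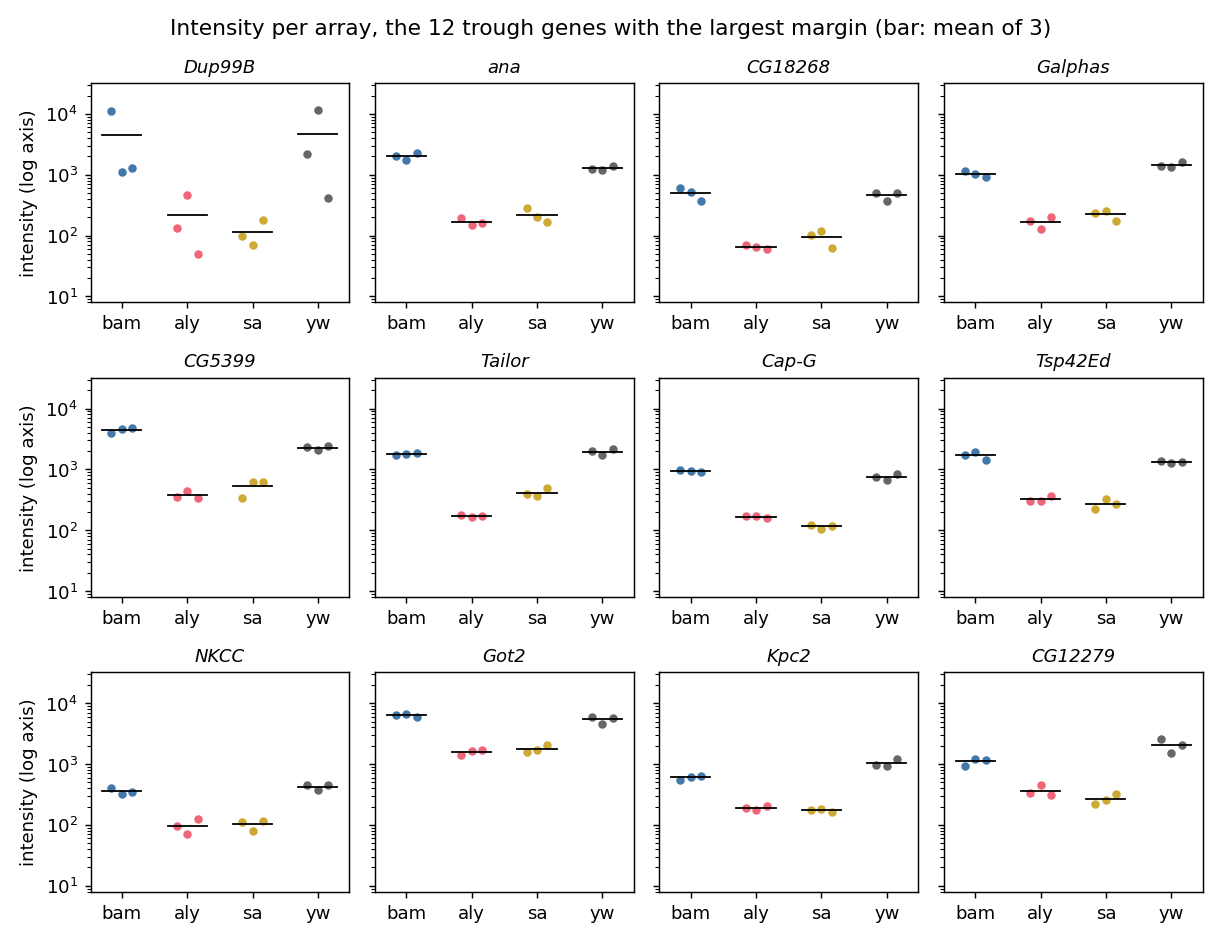
Intensity on a log axis in each array for the 12 trough genes with the largest margin in size, with points for arrays and bars for means of 3. In 11 panels the arrest arrays lie below all others, while Dup99B ranges from 419 to 11631 in bam and yw and overlaps the arrest arrays.

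Some trough genes are known from other tissues, and markers of other tissues were read beside them. Dup99B, a seminal peptide of the ejaculatory duct, measured 132, 469 and 49.8 in aly, 97.1, 69.9 and 181 in sa, 11049, 1120 and 1280 in bam and 2219, 11631 and 419 in yw. The spread within bam and yw was about as wide as the gap to the mutants, and its margin of -3.74 (largest limma adjusted p of the 4 pairs 0.017) was not called without the first bam array, the third aly array or the second yw array. Act87E, an actin of muscle, averaged 503 in aly, 1521 in sa, 3856 in bam and 5652 in yw. Lsp2, a storage protein of the fat body, averaged 206, 238, 900 and 644, and was not called without any 1 of 4 single arrays. Among the markers, 9 of 11 testis muscle genes were lower in the contrast, 12 of 13 accessory gland genes and 4 of 7 fat body genes, with none higher, against 11.8% lower over all genes. The median differences of these lists were -1.4, -1.56 and -1.25. Against yw alone fewer were lower. Of the muscle genes 2 were lower in aly and 2 in sa, of the accessory gland genes 5 in aly and 0 in sa, and of the fat body genes 2 in each. Of the 3 markers of seminal vesicle and ejaculatory duct, 0 were lower in the contrast (median -0.49), and against yw their medians were 0.12 in aly and 0.36 in sa.

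The marker sums show where those differences lay. The summed intensity of the 11 muscle genes was 2802 to 4187 in aly, 3800 to 5855 in sa, 18910 to 21573 in bam and 8836 to 10627 in yw. The 13 accessory gland genes summed to 8607 to 12329 in aly, 15046 to 32452 in sa, 29788 to 120110 in bam and 16114 to 90314 in yw, with the second yw array highest in yw. The 7 fat body genes summed to 387 to 604 in aly, 579 to 984 in sa, 1610 to 3340 in bam and 2016 to 3593 in yw. None of these lists had a marker called higher in either mutant over yw, and against bam 1 muscle gene was higher in sa. Cyst cell, hub, hemocyte, pigment cell and the seminal vesicle and duct markers held no peak or trough gene, and 1 of 7 cyst cell and 1 of 9 hemocyte markers were lower in the contrast, zfh1 and srp, which were high in bam alone. The part of other tissues in the trough genes was not tested. No marker list held a peak gene.

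**Figure D5:**
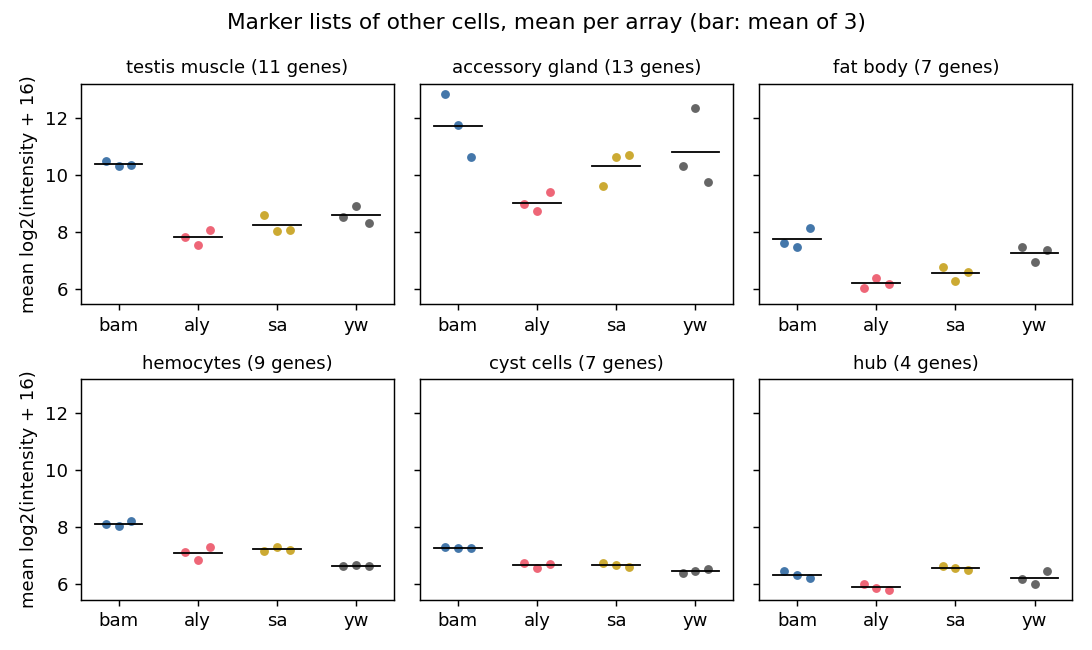
Mean log2(intensity + 16) over the genes of 6 marker lists in each array, with points for arrays and bars for the mean of 3. Muscle, accessory gland and fat body markers are highest in bam and lowest in aly, and the accessory gland list spreads most widely among arrays of bam and of yw.

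The peak genes lay on all large chromosome arms. On the X chromosome there were 93 of the 433 peak genes with a position (21.5%), against 1873 of 11892 genes measured (15.8%) and 8 of 57 trough genes (14.0%). The X share of the peak genes was 20.6 to 23.0% under the other scalings. Arm 2R held 16.2% of peak genes against 20.4% of all genes, and arm 3R held 35.1% of trough genes against 25.0%. These shares are a description, with no test. Of the 433 placed peak genes, 47 (10.9%) had another peak gene as their next measured neighbour, in 23 runs, and the longest run, of 3 genes, was Sirt7, Cul5 and Bicra. kmg lay next to Pk34A and eIF4E6 next to CG1951, and Dup99B and Obp99b were the only neighbouring trough genes. Names and positions came from the RefSeq annotation of Release 6.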

How the data were processed

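Transcripts were measured in 12 RNA pools of testes (4 genotypes, 3 biological replicates each, per the series' design text) on Affymetrix Drosophila Genome 2.0 arrays. The authors deposited linear intensities, 1 per probe set and array. The submitters' processing notes name 3 tools, MAS5, RMA and limma. Their versions are not given in the sources used here, nor is it stated whether MAS5 or back-transformed RMA gave the intensities. Scanner files were not used here.

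Each deposited intensity was turned into a log2 value after adding 16. Of 18952 probe sets 183 controls were left out, and of the other 18769, 13647 had 1 gene symbol, 402 several and 4720 none here. Through their Entrez identifiers 13544 matched the RefSeq table of Release 6, and 0 symbols changed. Each of 11982 genes was read from its brightest probe set (1094 genes had more than 1), and none was filtered for low intensity. Arrays have no counts, so precision rests on 3 arrays per genotype. All arrays entered 1 model in limma 3.58.1 (R 4.3.3, lmFit and eBayes) without covariates, with Benjamini-Hochberg adjustment over all genes. On simulated data for 11982 genes, 100% of 4-fold and 88% of 2.83-fold peaks and troughs were recovered. There were 0 false ones and 1 false call in the contrast. All unchanged genes were simulated with 1 mean across genotypes, unlike these data, so the rate of false calls here is not shown.

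The members and lists (32 gene lists and 9 marker lists) were chosen with earlier results of these data known. Named were bam, aly and sa, the 12 peak and 12 trough genes of largest margin, with and without uncharacterised genes, and up to 4 list members in a class or otherwise up to 3 called in the contrast. Genes named beyond this rule (those missing the definition, at its limit, or given as contrasts) were chosen after their values were seen. Alternatives were pseudocounts of 1 and 64, quantile normalization, centring on the median or on ribosomal protein genes, 8485 brighter genes, the mean of probe sets, every probe set, array weights, trended and robust eBayes, no fold minimum, an adjusted p under 0.01, the largest of the 4 p-values, the replicate number as a block, replicate 3 as a batch, replicates 1 and 2 only, and leaving out each array. Promoter sequences were not analysed here. Python 3.11.15 joined the tables, and matplotlib 3.10.9 drew the plots.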

Additional observations from a re-analysis of the deposited data

How the results depend on the processing

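On the deposited scale 1941 genes were higher and 1410 lower in the contrast, with 434 peak and 57 trough genes. Ribosomal centring gave 1030, 2637, 122 and 410, and no fold minimum gave 4230, 3773, 1224 and 197. Leaving out each array gave 1823 to 1996 higher, 1352 to 1468 lower, 401 to 459 peak and 51 to 64 trough genes. The next counts are over each scaling's own classes, which held 356 peak and 82 trough genes (quantile), 297 and 80 (median) and 122 and 410 (ribosomal). Among peak genes, aly over sa went from 57 (13.1%) to 95 (32%) with median and 17 (13.9%) with ribosomal centring, and sa over aly from 5 to 0 and 1. There bam over yw went from 46 (10.6%) to 28 (7.87%), 23 (7.74%) and 1 (0.82%) under the 3 scalings, and yw over bam from 69 (15.9%) to 26 (21.3%) with ribosomal centring. Among trough genes, aly over sa went from 1 (1.75%) to 5 (6.1%), 3 (3.75%) and 5 (1.22%), and sa over aly from 6 (10.5%) to 2 (2.44%), 2 (2.5%) and 15 (3.66%). There bam over yw went from 5 (8.77%) to 13 (15.9%), 11 (13.8%) and 69 (16.8%), and yw over bam from 5 (8.77%) to 10 (12.5%, median) and 32 (7.8%, ribosomal). The cause was not tested. Same-numbered replicates correlated between -0.416 and 0.481 in their deviations, and the labels give no link between them beyond the number. With the replicate number as a block there were 434 peak and 58 trough genes. Of 3980 values of single genes and kept genes scored under these alternatives, none reversed and 66 fell below the threshold, 25 of them with ribosomal centring. Single genes were not scored with every probe set, so this does not cover their other probe sets. Some of those were called in the opposite direction, at -1.33 and -1.75 in oaf and -1.06 in mod(mdg4).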

Other observations

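Further families were seen among the peak genes after their values were known, and are given as counts with no test. One was the group of glycosylphosphatidylinositol (GPI) anchor genes, whose products attach a lipid anchor to cell surface proteins in the endoplasmic reticulum. Of 21 measured, 11 (52.4%) were peak genes, against 3.62% of all genes, and 17 were higher and 0 lower in the contrast, with a median difference of 1.67. PGAP3 averaged 1727 in aly, 1348 in sa, 310 in bam and 366 in yw, and PIG-F, of the ethanolamine phosphate transfer step, averaged 1801, 2018, 517 and 534. PIG-C, of the first enzyme of the pathway, averaged 539, 682, 117 and 145. PIG-Wb was an exception, with 730 in yw, 197 in sa, 187 in aly and 30.3 in bam. The number of GPI peak genes was 11 with quantile normalization, 9 with median centring and 2 with ribosomal centring. Among other genes of the endoplasmic reticulum, 4 of 9 subunits of the membrane protein insertion complex EMC (44.4%) and 3 of 10 Alg genes of N-glycan synthesis (30.0%) were peak genes. The EMC count was 3 with quantile normalization, 0 with median and 0 with ribosomal centring, and the Alg count was 3, 3 and 1.

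The anaphase-promoting complex, the ubiquitin ligase of mitotic and meiotic exit, had 3 peak genes of 9, namely Cdc23, APC4 and mr. Cdc23 averaged 2291 in aly, 2570 in sa, 527 in bam and 630 in yw, and APC4 averaged 1448, 899, 273 and 166. Under the same 3 scalings that count was 2, 3 and 1. Of 22 Mediator subunits 4 (18.2%) were peak genes, and 3, 2 and 3 under those scalings. All 3 measured betaNACtes genes were peak genes, with betaNACtes4 at 6741 in aly, 3043 in sa, 655 in yw and 121 in bam, and 3, 3 and 2 were peak genes under those scalings. The uncertain division of signal between near-identical copies, given above for betaNACtes1 and betaNACtes2, limits this count.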
